A study of Ovis aries with 12 samples.

Results

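The genes described here are receptors, junction proteins and transcription factors that mark endothelial cells, the cells that line blood and lymph vessels. They were taken from the deposited table by gene name. Of the 10 names looked for, 8 were found among the 26247 genes of the table (KDR, FLT1, FLT4, TEK, TIE1, CDH5, PECAM1 and ERG). The other two names, SOX18 and SOX7, were not analysed here. All 8 passed the filter for testing, which asked for 1 FPKM (fragments per kilobase, a level corrected for gene length and library size) in 3 or more libraries out of 12. No sequence is shown, since none was used here.

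Bulk RNA was sequenced from sheep embryos (Ovis aries) that had been dissociated enzymatically into cells. Hulunbuir Short-tail Sheep served as the experimental breed, with Ujumqin sheep as control. No treatment or engineered allele is named for either of them. The embryos were 16-day or 25-day, and each of the 4 combinations of breed and age had 3 libraries. The breed comparisons ask what differs between a short-tailed breed and its control at each age, and the age comparisons what differs between day 16 and day 25 within a breed. The labels do not say whether the membranes around the embryo were included, whether embryos were pooled, or whether replicate libraries stem from separate animals. If they do not, the p-values measure technical spread alone.

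VEGF receptors are tyrosine kinases through which endothelial cells and their precursors sense growth factors of the VEGF family. TEK, also called TIE2, binds the angiopoietins, and TIE1 is a related receptor that acts together with it. CDH5 (VE-cadherin) and PECAM1 hold neighbouring endothelial cells together, and ERG is an ETS transcription factor that, in mouse and human endothelium, acts on the promoters of junction and receptor genes. In mouse embryos KDR marks mesodermal precursors of blood and endothelium before the junction genes are made, so that the members do not mark exactly the same cells.

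The total count per library lay between 30464606 and 55455815, with a count for 16794 to 17995 genes. Replicates of a group correlated at r = 0.893 to 0.980 on the log2 CPM scale (counts scaled by library size), and every replicate pair differed by more than sampling noise. Libraries varied more at day 16 than at day 25, with a biological coefficient of variation of 43.8% against 18.1%. Because bulk RNA was measured, fewer endothelial cells and less RNA per endothelial cell cannot be told apart. Other cell types also differed between the groups. The summed FPKM of 14 red cell markers was 980.3 to 4280 in Ujumqin against 102.6 to 188.3 in Hulunbuir embryos of day 16, and 2035 to 2550 against 16670 to 19530 at day 25. The corresponding ranges for 14 trophoblast markers, genes of the outer layer of the conceptus, were 2087 to 4359 and 2012 to 6151 at day 16, and 386.3 to 653.9 and 530.5 to 572.5 at day 25. Of the 12 trophoblast markers tested, 4 were lower and 0 higher in Hulunbuir at day 16, where 8.39% of all genes were lower, with a median log2 difference of -0.74. KRT8, a keratin made in other epithelia too, entered these sums at day 16 with 3002, 2030 and 1384 FPKM in Ujumqin and 4247, 3153 and 1320 in Hulunbuir. The trophoblast marker PPARG had 20.5, 75.5 and 9.80 FPKM in Ujumqin against 0.635, 2.99 and 0.456 in Hulunbuir at day 16, with no overlap (-4.69 ± 0.92 on the log2 scale, edgeR adjusted p = 0.00903, 0.124 in the 6 day 16 libraries alone). For 13 markers of the uterine lining the sums were 589.7 to 2534 FPKM in Ujumqin and 486.7 to 666.7 in Hulunbuir at day 16. At day 25 they were 573.7 to 675.6 and 605.4 to 644.6. Of these markers CST3 had 604.8, 1750 and 161.7 FPKM in Ujumqin and 265.1, 127.7 and 161.4 in Hulunbuir at day 16. CTSL had 156.8, 471.1 and 4.828 against 9.246, 35.73 and 5.395, and IGFBP1 239.7, 128.1 and 271.4 against 21.16, 74.18 and 48.24. The day 16 means of MMP2, SPP1 and STC1 were higher in Hulunbuir, at 231.1 against 141.1 FPKM for MMP2. PGR and PAEP were at 0 in all 12 libraries, and OXTR in all Hulunbuir libraries of day 25. ESR1 was at 0 in all libraries of Ujumqin at both ages and of Hulunbuir at day 25, but not in all of Hulunbuir at day 16. SERPINA14 was at 0 in all libraries of Hulunbuir at day 16 and of Ujumqin at day 25, but not in all of the other groups. Of the 8 uterine markers tested, 3 were lower and 1 higher in Hulunbuir at day 16, 0 were lower and 1 higher at day 25, and with age 5 fell and 1 rose in Ujumqin and 3 fell in Hulunbuir. Their part in the members' values was not tested. Of 15 cell cycle genes, 3 were higher in Hulunbuir at day 16 and 2 at day 25, 0 were lower, and with age 7 rose and 1 fell in Ujumqin and 1 rose in Hulunbuir. Over all tested genes, 8.46% were higher and 8.39% lower in Hulunbuir at day 16, and 7.88% and 8.84% at day 25. With age 30.7% of all genes rose and 32.9% fell in Ujumqin, and 18.9% rose and 21.6% fell in Hulunbuir.

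At day 16 the VEGF receptor KDR was the most abundant member in both breeds, and at day 25 CDH5 was. KDR had 65.4 ± 8.96 FPKM (SD, n = 3) in Ujumqin and 100.1 ± 19.3 in Hulunbuir at day 16, with the next gene's libraries all below it in either breed. In Ujumqin at day 16 PECAM1 (34.2 ± 18.8 FPKM), CDH5 (18.9 ± 11.9), TEK (18.3 ± 4.98), TIE1 (15.8 ± 1.73) and FLT1 (14.1 ± 5.49) followed, and each overlapped the next. ERG (3.36 ± 2.45) and FLT4 (1.82 ± 0.684) were lowest there and overlapped. In Hulunbuir at day 16 CDH5 (39.3 ± 3.04), TIE1 (38.5 ± 3.55), PECAM1 (36.6 ± 8.27) and TEK (29.8 ± 2.43) formed an overlapping middle range. FLT1 (18.3 ± 2.15) stood clear below them and clear above FLT4 (6.90 ± 1.55) and ERG (5.64 ± 1.71), which overlapped.

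The order was flatter at day 25. In Ujumqin CDH5 (10.4 ± 1.15 FPKM), PECAM1 (10.2 ± 2.76), TEK (8.35 ± 3.01), TIE1 (7.08 ± 0.208), KDR (5.48 ± 1.42) and ERG (4.42 ± 1.16) each overlapped the next, and FLT1 (2.59 ± 0.399) and FLT4 (0.461 ± 0.0462) stood below them in that order. In Hulunbuir CDH5 (14.9 ± 0.625), PECAM1 (11.6 ± 0.153), TIE1 (11.01 ± 0.0945) and KDR (10.2 ± 0.309) came in that order with no overlap between neighbours. TEK (6.49 ± 0.0822) and ERG (5.98 ± 1.69) followed and overlapped. FLT4 (1.73 ± 0.237) was above FLT1 (1.25 ± 0.0577) in every Hulunbuir library at day 25, whereas FLT1 was above FLT4 in every library of the other groups.

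**Figure D1:**
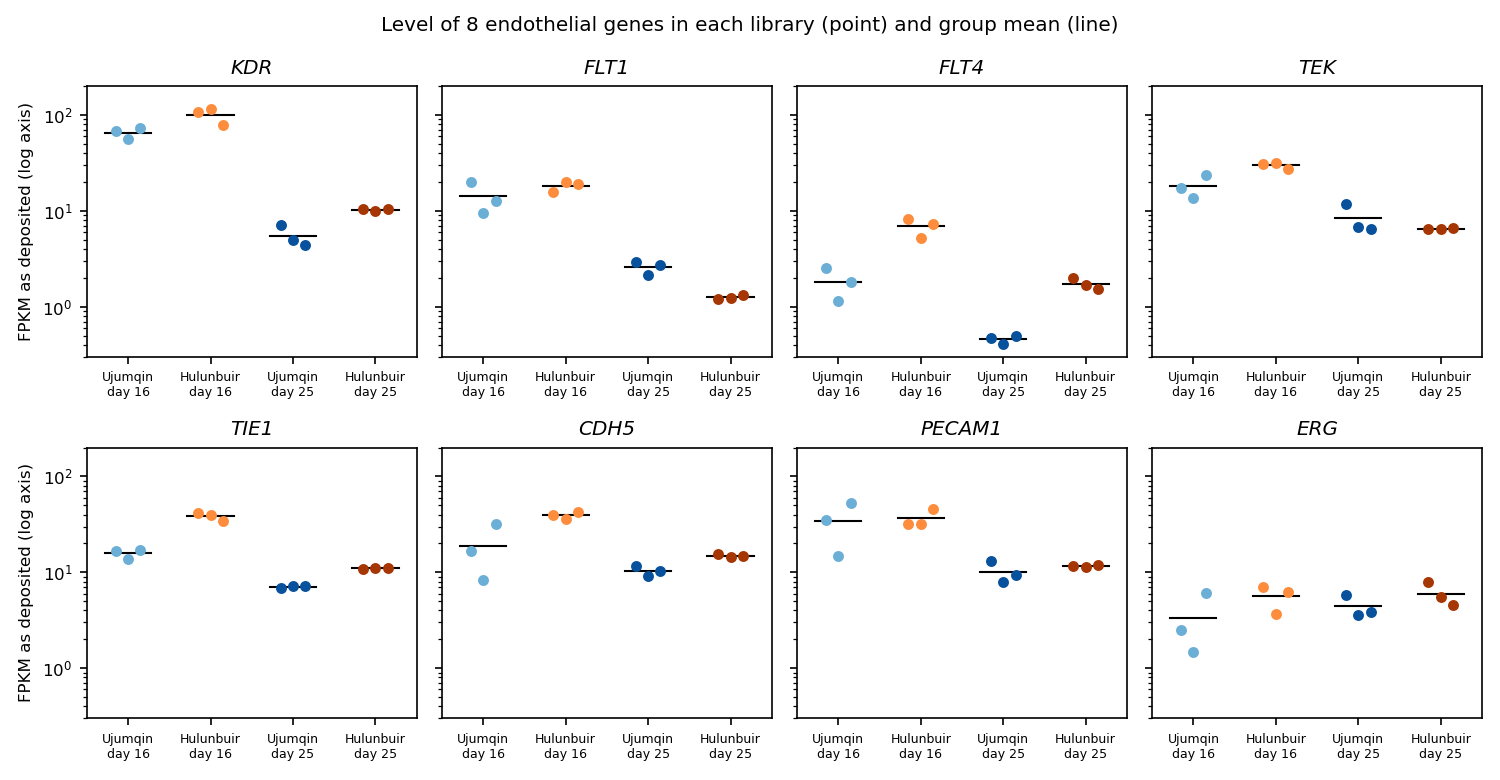
FPKM as deposited (log axis) of the 8 genes in each library (points) and the group mean (black line), for Ujumqin and Hulunbuir embryos at day 16 and day 25. KDR lies between 55.4 and 115 FPKM at day 16 and between 4.37 and 10.4 at day 25, whereas the ERG points of the groups overlap.

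KDR (VEGFR2, the main signalling receptor for VEGFA) lies on chromosome 6 at 70562488 to 70607422, minus strand (these and the coordinates that follow are from the deposited table, on build Oar_v3.1). Its FPKM was 68.2, 55.4 and 72.6 in replicates 1 to 3 of Ujumqin and 107, 115 and 78.3 in Hulunbuir at day 16. At day 25 it was 7.07, 4.99 and 4.37 in Ujumqin and 10.4, 9.86 and 10.4 in Hulunbuir. The ages did not overlap in either breed. KDR fell with age by 3.45 ± 0.24 (SE) on the log2 scale in Ujumqin and by 3.48 ± 0.24 in Hulunbuir, with adjusted p of 2.06e-06 and 6.26e-06 (edgeR's quasi-likelihood test on the counts of all 12 libraries, two-sided, Benjamini-Hochberg adjustment over 14595 genes, as in every adjusted p given with no other source). These were 10.9-fold and 11.2-fold differences.

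Between breeds, the KDR libraries of Hulunbuir were above those of Ujumqin in deposited FPKM at both ages. After TMM scaling (a scaling that sets the typical gene equal between libraries) the day 16 groups overlapped. The breed differences in KDR were 0.58 ± 0.22 on the log2 scale at day 16 (adjusted p = 0.0924, 0.290 in the 6 day 16 libraries alone) and 0.54 ± 0.22 at day 25 (adjusted p = 0.118). Neither passed the threshold of 0.05. In the 6 day 25 libraries alone the adjusted p was 0.00960, and the day 25 difference passed in 7 of 22 alternative settings. Without Hulunbuir day 16 replicate 3, its group's lowest KDR library, the day 16 difference was 0.80 and passed (adjusted p = 0.0194), as did the day 25 difference of 0.54 (adjusted p = 0.0398).

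FLT1 (VEGFR1, which binds VEGFA, VEGFB and PGF and also has a soluble form that traps them) lies on chromosome 10 at 31837779 to 32031907, plus strand. Its FPKM was 20.1, 9.43 and 12.7 in Ujumqin and 15.8, 20.0 and 19.0 in Hulunbuir at day 16, and 2.93, 2.15 and 2.70 against 1.20, 1.25 and 1.31 at day 25. The breeds overlapped at day 16, and at day 25 every Hulunbuir library was below every Ujumqin library. FLT1 fell with age in both breeds, by 2.31 ± 0.26 on the log2 scale in Ujumqin (adjusted p = 2.77e-05) and by 4.03 ± 0.28 in Hulunbuir (adjusted p = 6.26e-06). At day 25 it was lower in Hulunbuir by 1.41 ± 0.26, a 2.67-fold difference (adjusted p = 0.00630, 0.000259 in the 6 libraries of that age alone). This call did not pass with limma on log2(FPKM + 1), at -0.67 and an adjusted p of 0.0583, or on FPKM scaled to a common sum, at -0.58 and an adjusted p of 0.107. At day 16 the breed difference was 0.31 ± 0.25 (adjusted p = 0.404, 0.605 in the 6 libraries).

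FLT4 (VEGFR3), the receptor for VEGFC and VEGFD, is made widely in early embryonic vessels and later mostly in lymphatic ones. It lies on chromosome 5 at 277541 to 303011, plus strand. Its FPKM was 2.51, 1.14 and 1.82 in Ujumqin and 8.24, 5.21 and 7.26 in Hulunbuir at day 16, and 0.475, 0.409 and 0.499 against 1.99, 1.66 and 1.52 at day 25. The Hulunbuir libraries lay above the Ujumqin libraries at both ages with no overlap. FLT4 was higher in Hulunbuir by 1.84 ± 0.27 on the log2 scale at day 16, a 3.57-fold difference (adjusted p = 0.00332), and by 1.53 ± 0.28 at day 25, a 2.88-fold difference (adjusted p = 0.00617). The day 25 difference passed in all 22 alternative settings. In the 6 day 16 libraries alone the adjusted p was 0.1004, and 0.0410 with replicate numbers as a block. FLT4 fell with age in Ujumqin by 1.83 ± 0.28 (adjusted p = 0.000200) and in Hulunbuir by 2.14 ± 0.28 (adjusted p = 0.000208). The lowest count of FLT4 in a library was 54, so that its values are less precise than those of KDR.

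TEK, the angiopoietin receptor, lies on chromosome 2 at 94739266 to 94838005, plus strand. Its FPKM was 17.5, 13.8 and 23.6 in Ujumqin and 30.6, 31.8 and 27.1 in Hulunbuir at day 16, and 11.8, 6.77 and 6.48 against 6.52, 6.40 and 6.57 at day 25. At day 16 the Hulunbuir libraries were above the Ujumqin ones, and at day 25 the breeds overlapped, with Ujumqin replicate 1 apart from the rest. After TMM scaling they did not overlap at day 25, with 56.9, 34.99 and 33.85 CPM in Ujumqin and 25.34, 25.35 and 25.81 in Hulunbuir. TEK fell by 0.99 ± 0.24 on the log2 scale with age in Ujumqin (adjusted p = 0.00341) and fell by 2.38 ± 0.24 in Hulunbuir (adjusted p = 6.35e-05). The breed difference was 0.66 ± 0.23 at day 16 (adjusted p = 0.0721, 0.215 in 6 libraries) and -0.72 ± 0.23 at day 25 (adjusted p = 0.0584). In the 6 day 25 libraries alone the day 25 difference had an adjusted p of 0.0171. On FPKM scaled to a common sum it was -0.18 (limma, adjusted p = 0.640). The day 16 difference passed in 3 of 22 alternative settings. These were DESeq2 (adjusted p = 0.04035) and leaving out Ujumqin day 16 replicate 3 (0.0344) or Ujumqin day 25 replicate 1 (0.0458). The day 25 difference passed in 8 of 22. Besides the 6 libraries, these were DESeq2 (0.0192), RLE scaling (0.0481), voom (0.00434) and the 6 libraries with a replicate block (0.0178). It also passed without Hulunbuir day 16 replicate 3 (0.0448), Ujumqin day 16 replicate 2 (0.0437) or Ujumqin day 16 replicate 3 (0.0425).

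TIE1, the orphan partner of TEK, lies on chromosome 1 at 17757463 to 17776556, plus strand. Its FPKM was 16.7, 13.8 and 16.9 in Ujumqin and 41.1, 39.9 and 34.4 in Hulunbuir at day 16, and 6.84, 7.18 and 7.22 against 10.92, 10.99 and 11.11 at day 25. The breeds did not overlap at either age, Hulunbuir being above. TIE1 was higher in Hulunbuir at day 16 by 1.23 ± 0.15 on the log2 scale, a 2.35-fold difference (adjusted p = 0.00216). In the 6 day 16 libraries alone the adjusted p was 0.1004, and 0.0560 with the replicate block. At day 25 the difference was 0.27 ± 0.15 (adjusted p = 0.258, 0.0217 in 6 libraries), and it passed in 6 of 22 alternative settings. TIE1 fell by 1.01 ± 0.15 with age in Ujumqin (adjusted p = 0.000199) and fell by 1.98 ± 0.16 in Hulunbuir (adjusted p = 1.36e-05).

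CDH5, the cadherin of endothelial adherens junctions, lies on chromosome 14 at 33491872 to 33521046, plus strand. Its FPKM was 16.7, 8.30 and 31.9 in Ujumqin and 39.6, 36.1 and 42.2 in Hulunbuir at day 16, and 11.5, 9.19 and 10.4 against 15.6, 14.4 and 14.7 at day 25. The highest Ujumqin library at day 16 was 3.84 times the lowest, against 1.17 times in Hulunbuir. CDH5 fell with age in Hulunbuir by 1.56 ± 0.33 on the log2 scale (adjusted p = 0.00359). In Ujumqin, where the ages overlapped, the difference was -0.71 ± 0.32 (adjusted p = 0.0754). It was -1.05 and passed without Ujumqin day 16 replicate 2 (adjusted p = 0.00130), the library with the lowest CDH5 at that age. The breed difference was 1.01 ± 0.32 at day 16 (adjusted p = 0.0542, 0.247 in 6 libraries) and 0.16 ± 0.32 at day 25 (adjusted p = 0.776, 0.0719 in 6 libraries). The day 16 difference passed in 6 of 22 alternative settings. It was 1.11 in the 12 libraries with a replicate block (adjusted p = 0.0458) and 1.55 without Ujumqin day 16 replicate 3 (adjusted p = 0.00211). It also passed in DESeq2 (adjusted p = 0.0168). In limma it passed on log2(FPKM + 1) (0.0345), log2(FPKM + 0.1) (0.0365) and FPKM scaled to a common sum (0.0300).

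PECAM1 (CD31), an adhesion molecule at endothelial contacts that leukocytes and platelets also carry, lies on chromosome 11 at 47943720 to 48008979, minus strand. Its FPKM was 35.3, 14.9 and 52.5 in Ujumqin and 32.1, 31.6 and 46.2 in Hulunbuir at day 16, and 13.3, 7.93 and 9.35 against 11.6, 11.5 and 11.8 at day 25. The breeds overlapped at both ages, and the ages did not overlap in either breed. PECAM1 fell with age by 1.6 ± 0.33 on the log2 scale in Ujumqin (adjusted p = 0.00154) and by 1.80 ± 0.33 in Hulunbuir (adjusted p = 0.00173). The breed difference was 0.03 ± 0.32 at day 16 (adjusted p = 0.957, 0.983 in 6 libraries) and -0.17 ± 0.32 at day 25 (adjusted p = 0.755, 0.505 in 6 libraries). The summed FPKM of 17 leukocyte and platelet markers was 47.9 to 126.6 in Ujumqin and 36.4 to 47.5 in Hulunbuir at day 16, and 64.5 to 75.1 and 65.9 to 69.2 at day 25. The platelet gene PPBP was at 0 in all Hulunbuir day 16 libraries. The part of these cells in the PECAM1 values was not tested.

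ERG lies on chromosome 1 at 268709089 to 268782327, minus strand. Its FPKM was 2.49, 1.47 and 6.13 in Ujumqin and 6.94, 3.70 and 6.27 in Hulunbuir at day 16, and 5.75, 3.61 and 3.89 against 7.84, 5.57 and 4.52 at day 25. The groups overlapped in all 4 comparisons. No comparison passed: the breed differences were 0.68 ± 0.43 (adjusted p = 0.291, 0.488 in 6 libraries) at day 16 and 0.07 ± 0.43 (adjusted p = 0.928, 0.716 in 6 libraries) at day 25. The age differences were 0.56 ± 0.43 in Ujumqin (adjusted p = 0.276) and -0.05 ± 0.43 in Hulunbuir (adjusted p = 0.938). Without Ujumqin day 16 replicate 3, the highest of its group, ERG passed in the day 16 breed comparison at 1.38 (adjusted p = 0.0206) and in the Ujumqin age comparison at 1.25 (adjusted p = 0.0104).

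**Figure D2:**
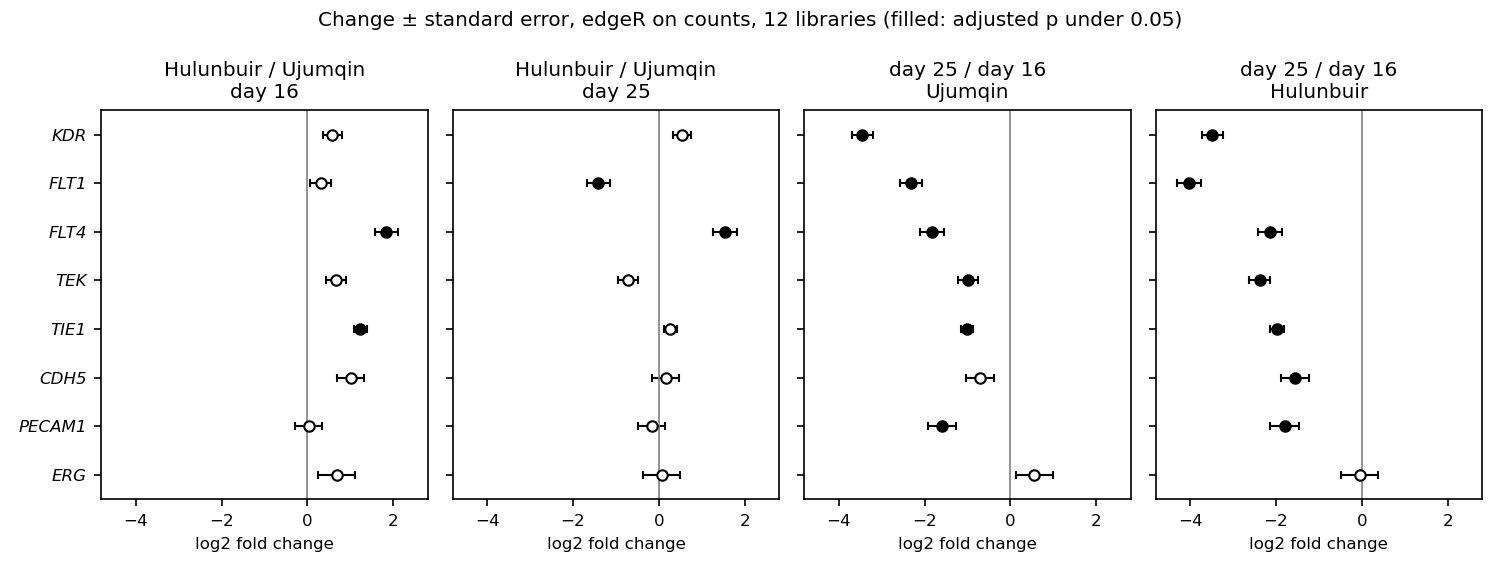
Log2 fold change (point) and standard error (bar) of the 8 genes between breeds at each age and between ages in each breed, from edgeR on the counts of 12 libraries. Filled points had an adjusted p under 0.05: 2 and 2 genes between breeds at day 16 and day 25, and 6 and 7 genes, all lower at day 25, between ages.

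Counted together, 6 of the 8 genes fell between day 16 and day 25 in Ujumqin and 7 in Hulunbuir, and none rose in either breed. Among all tested genes, 32.9% fell in Ujumqin and 21.6% in Hulunbuir. The median log2 difference of the 8 genes was -1.31 in Ujumqin and -2.06 in Hulunbuir, beside -0.07 and -0.04 for all genes. The libraries of the ages did not overlap, after TMM scaling, for 6 genes in Ujumqin and 7 in Hulunbuir, with 68.3% and 57.6% of all genes in that state. No call in either age comparison was lost in any of the 22 alternative settings. Trophoblast markers were lower at day 25 too, with 10 of 12 tested markers falling in Ujumqin and 7 in Hulunbuir, and the part of that tissue in the members' fall was not tested.

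Between breeds the counts were small. At day 16, 2 of the 8 genes (FLT4 and TIE1) were higher in Hulunbuir and 0 lower, where 8.46% of all genes were called higher. Their median difference was 0.67 on the log2 scale beside 0.01 for all genes. In the 6 day 16 libraries alone 0 of the 8 genes passed, and 0.0206% of all genes did (3 genes in edgeR, with 2955 under an unadjusted p of 0.05). For 4 of the 8 genes (FLT4, TEK, TIE1 and CDH5) the breeds did not overlap at day 16 after TMM scaling, with 26.1% of all genes in that state.

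At day 25, 1 of the 8 genes (FLT4) was higher in Hulunbuir and 1 (FLT1) lower, where 7.88% of all genes were called higher and 8.84% lower. The median difference was 0.11 on the log2 scale beside -0.01 for all genes. In the 6 day 25 libraries alone 5 passed (KDR, FLT1, FLT4, TEK and TIE1), with 46.0% of all genes. The breeds did not overlap for 6 genes after TMM scaling, with 57.4% of all genes in that state. In deposited FPKM the typical gene was 0.29 higher in Hulunbuir at day 25 on the log2(FPKM + 1) scale.

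The change with age itself differed between breeds for 3 of the 8 genes. The fall was deeper in Hulunbuir for FLT1 by 1.73 ± 0.36 on the log2 scale (interaction, adjusted p = 0.00914), for TEK by 1.38 ± 0.33 (adjusted p = 0.0163) and for TIE1 by 0.97 ± 0.22 (adjusted p = 0.0125). The interaction was negative and called for 10.3% of all genes. For TEK it passed on none of the 3 FPKM scales in limma, at -0.97 to -1.04 with adjusted p of 0.0527 to 0.0842. For FLT1 it did not pass on FPKM scaled to a common sum, at -1.06 and an adjusted p of 0.0573. For KDR it was -0.04 ± 0.31 (adjusted p = 0.950) and for FLT4 -0.31 ± 0.38 (adjusted p = 0.6002). CDH5 had -0.85 ± 0.46 (adjusted p = 0.205, and -1.39 with 0.0111 without Ujumqin day 16 replicate 3), PECAM1 -0.20 ± 0.46 (adjusted p = 0.790) and ERG -0.61 ± 0.61 (adjusted p = 0.509). The breed, age and interaction comparisons share libraries, so that they are not independent of each other.

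Ratios of 2 members within a library do not depend on how libraries are scaled. The ratios given here were chosen after the values had been seen, and no test was made of them. The FPKM of KDR was 4.35 ± 2.21 times (SD, n = 3) that of CDH5 in Ujumqin and 2.58 ± 0.672 times in Hulunbuir at day 16, and 0.526 ± 0.0992 and 0.687 ± 0.0197 times at day 25. Every day 16 library had a ratio above 1 and every day 25 library one below it. ERG relative to CDH5 went the other way, from 0.173 ± 0.0216 and 0.142 ± 0.0370 at day 16 to 0.422 ± 0.0682 and 0.399 ± 0.0980 at day 25, with no overlap between ages. In the Ujumqin day 16 libraries, where ERG and CDH5 varied 4.18-fold and 3.84-fold from lowest to highest, their ratio lay between 0.1497 and 0.192.

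PECAM1 was 1.85 ± 0.241 times CDH5 in Ujumqin at day 16, with 1.65 to 2.12 across libraries, where PECAM1 itself varied 3.52-fold. In Hulunbuir it was 0.927 ± 0.149 at day 16, and at day 25 it was 0.972 ± 0.159 in Ujumqin and 0.781 ± 0.0325 in Hulunbuir. The Ujumqin day 16 libraries thus lay above all other libraries. FLT1 relative to CDH5 was 0.915 ± 0.448 and 0.467 ± 0.0777 at day 16, and 0.249 ± 0.0134 and 0.0843 ± 0.00663 at day 25 in Ujumqin and Hulunbuir.

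Within the VEGF receptors, KDR made up 80.8% ± 4.96 of the summed FPKM of KDR, FLT1 and FLT4 in Ujumqin and 79.5% ± 4.01 in Hulunbuir at day 16. At day 25 its share was 63.8% ± 5.29 in Ujumqin and 77.5% ± 0.999 in Hulunbuir. FLT1 took 17.0% ± 4.46 and 14.8% ± 3.07 at day 16, and 30.7% ± 4.31 and 9.50% ± 0.605 at day 25. FLT4 took 2.19% ± 0.523 and 5.65% ± 1.71 at day 16, and 5.51% ± 1.03 and 13.1% ± 1.54 at day 25. The KDR to FLT1 ratio was 2.12 ± 0.435 in Ujumqin and 8.18 ± 0.454 in Hulunbuir at day 25, and 4.99 ± 1.39 and 5.55 ± 1.32 at day 16, where the breeds overlapped. TEK relative to TIE1 was 1.15 ± 0.217 and 0.776 ± 0.0275 at day 16, and 1.19 ± 0.467 and 0.590 ± 0.00678 at day 25, and every Hulunbuir library was below every Ujumqin library.

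**Figure D3:**
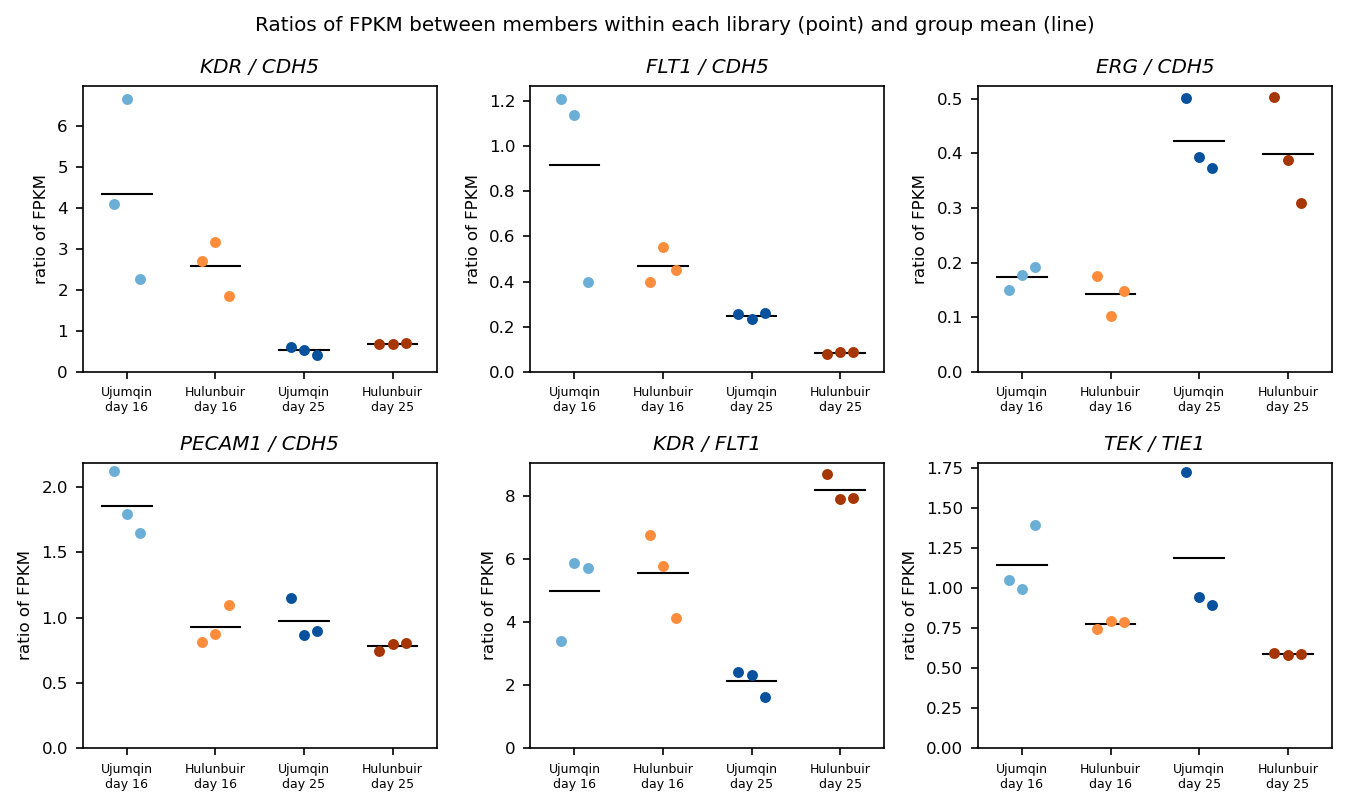
Ratio of FPKM between members within each library (points) and the group mean (black line), each axis starting at 0, with a range of its own per panel. KDR to CDH5 is above 1 in every day 16 library and below 1 in every day 25 library, ERG to CDH5 is higher at day 25, and KDR to FLT1 is 2.12 in Ujumqin and 8.18 in Hulunbuir at day 25.

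The counts for the gene lists that follow are given beside the shares over all tested genes. These were 8.46% higher and 8.39% lower in Hulunbuir at day 16 and 7.88% higher and 8.84% lower at day 25. With age 30.7% rose and 32.9% fell in Ujumqin, and 18.9% rose and 21.6% fell in Hulunbuir. Between breeds 0 genes of any list passed in the 6 day 16 libraries alone.

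Ligands of these receptors were tested for 8 of the 11 in the table. At day 16 VEGFC, the ligand of FLT4, was higher in Hulunbuir by 1.08 ± 0.27 on the log2 scale (adjusted p = 0.0225, 0.172 in 6 libraries), at 19.7 ± 3.08 FPKM against 8.92 ± 4.69 (SD, n = 3). PGF, a ligand of FLT1, was lower by 3.5 ± 0.75 (adjusted p = 0.0128, 0.138 in 6 libraries). The Ujumqin PGF values were 132.7, 299.2 and 14.9 FPKM, and the Hulunbuir ones 16.3, 13.1 and 12.9, so that replicate 3 of Ujumqin lay within the Hulunbuir range. Of 12 tested trophoblast markers, 4 were lower in Hulunbuir at that age, PPARG among them, and 8 did not pass. The part of trophoblast in the PGF values was not tested. At day 25 VEGFB, another FLT1 ligand, was lower in Hulunbuir by 0.81 ± 0.18 (adjusted p = 0.0142, 0.000229 in 6 libraries), with 80.4 ± 6.64 FPKM against 109 ± 1.07. The VEGFC call was lost without Ujumqin day 16 replicate 1 (adjusted p = 0.0713), Ujumqin day 16 replicate 2 or Hulunbuir day 16 replicate 1. The VEGFB call was lost without replicate 2 or 3 of either breed at day 25 (adjusted p up to 0.0656). No other ligand passed between breeds, and the median of the tested ligands was 0.20 at day 16 and -0.37 at day 25.

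With age, the ligand VEGFA fell in both breeds, by 1.30 ± 0.22 in Ujumqin (adjusted p = 0.000443) and by 1.54 ± 0.22 in Hulunbuir (adjusted p = 0.000434). Its FPKM went from 27.7 ± 2.20 to 10.2 ± 2.54 and from 33.1 ± 12.7 to 12.5 ± 0.983. VEGFB rose in Ujumqin by 1.45 ± 0.19 (adjusted p = 6.1e-05). ANGPT2, a ligand of TEK, fell in Ujumqin by 1.18 ± 0.30 (adjusted p = 0.00542) and in Hulunbuir by 1.38 ± 0.30 (adjusted p = 0.00463). In all, 4 ligands rose and 3 fell in Ujumqin, and 0 rose and 2 fell in Hulunbuir.

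The neuropilins are VEGF co-receptors, and both of them were lower at day 25. NRP1 fell with age by 2.16 ± 0.30 in Ujumqin (adjusted p = 9.1e-05) and by 2.82 ± 0.30 in Hulunbuir (adjusted p = 8.0e-05). NRP2, the partner of FLT4, fell by 1.74 ± 0.26 (adjusted p = 0.000159) and by 2.57 ± 0.26 (adjusted p = 6.3e-05). At day 16 NRP2 was higher in Hulunbuir by 0.92 ± 0.25 (adjusted p = 0.0312, 0.181 in 6 libraries), with 93.0, 40.6 and 82.4 FPKM against 36.8, 25.8 and 44.5, and the breeds overlapped. This call was lost without Hulunbuir day 16 replicate 1 (adjusted p = 0.102) or 3, Ujumqin day 16 replicate 1 or 2, or Hulunbuir day 25 replicate 3. Of the 9 tested co-receptors and regulators, 4 fell and 1 rose with age in Ujumqin, 3 fell and 0 rose in Hulunbuir, and between breeds 2 were higher in Hulunbuir at day 16 and 0 passed at day 25.

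Of 17 junction partners, 9 fell and 1 rose with age in Ujumqin, and 11 fell and 1 rose in Hulunbuir. F11R (JAM-A), a tight junction protein of endothelium and epithelium, fell by 3.33 ± 0.29 in Ujumqin (adjusted p = 6e-06) and by 2.96 ± 0.28 in Hulunbuir (adjusted p = 4.1e-05), from 81.3 ± 25.0 to 7.37 ± 0.0288 FPKM and from 67.6 ± 18.1 to 9.81 ± 1.21. CTNNB1 (beta-catenin), which binds the tail of cadherins in most cell types, had age differences of -0.20 ± 0.18 (adjusted p = 0.351) and -0.38 ± 0.18 (adjusted p = 0.117). Between breeds 1 junction partner was higher in Hulunbuir at day 16, and at day 25 there were 2 higher and 1 lower. PLEKHA7, a protein of epithelial adherens junctions, was higher in Hulunbuir at day 25 by 1.04 ± 0.21 (adjusted p = 0.00839, 0.000274 in 6 libraries).

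Of 13 tested transcription factors of endothelium and blood, 4 fell and 0 rose with age in Ujumqin, and 2 fell and 1 rose in Hulunbuir. Between breeds 1 was higher and 1 lower in Hulunbuir at day 16, and 2 were higher and 0 lower at day 25. ETS1, an ETS factor like ERG, fell by 1.55 ± 0.22 in Ujumqin (adjusted p = 0.000111) and by 0.95 ± 0.21 in Hulunbuir (adjusted p = 0.00523). SOX17, a SOXF factor of arterial endothelium and also of endoderm, was higher in Hulunbuir at day 16 by 1.51 ± 0.46 (adjusted p = 0.0450, 0.188 in 6 libraries), with 10.42, 10.59 and 10.02 FPKM against 2.26, 1.70 and 6.67. The call for SOX17 passed in 7 of 22 alternative settings, and leaving out any library but Ujumqin day 16 replicate 3 or day 25 replicate 1 ended it (adjusted p up to 0.129, without Ujumqin day 16 replicate 2). EPAS1 (HIF2A), an oxygen-regulated factor of endothelium and other tissues, had 72.4, 118.9 and 32.3 FPKM in Ujumqin and 19.0, 32.6 and 10.2 in Hulunbuir at day 16, with Ujumqin replicate 3 within the Hulunbuir range. It was lower in Hulunbuir at that age by 1.88 ± 0.51 (adjusted p = 0.0295, 0.180 in 6 libraries). The EPAS1 call passed in 16 of 22 alternative settings, and was lost without Ujumqin day 16 replicate 1 or 2 (adjusted p up to 0.110) or Hulunbuir day 16 replicate 1 or 3. The part of trophoblast in the EPAS1 values was not tested. At day 25 LYL1 and LMO2, partners in the complex that drives blood formation, were higher in Hulunbuir by 2.25 ± 0.58 (adjusted p = 0.0238, 0.000189 in 6 libraries) and by 1.36 ± 0.33 (adjusted p = 0.0188, 0.000317 in 6 libraries). The LYL1 call was lost when any 1 Hulunbuir day 25 library, or Ujumqin day 25 replicate 2 (adjusted p = 0.0927) or 3, was left out, and the LMO2 call without Hulunbuir day 25 replicate 1 or 2 or Ujumqin day 25 replicate 3 (adjusted p = 0.0791). Red cell markers were higher in Hulunbuir too at that age, 12 of 14, and the part of blood cells in the LYL1 and LMO2 values was not tested.

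Among 15 artery, vein and Notch genes, 6 were higher and 0 lower in Hulunbuir at day 16 (8.46% and 8.39% of all genes), with a median of 0.77 on the log2 scale, and 0 passed at day 25. None of the 15 passed in the 6 day 16 libraries alone. NOTCH4, the Notch receptor found mainly on endothelium, was higher at day 16 by 2.08 ± 0.33 (adjusted p = 0.00421, 0.104 in 6 libraries), with 7.03, 8.12 and 8.26 FPKM against 1.70, 0.838 and 2.87. With age EFNB2, the ephrin of arteries, fell by 1.84 ± 0.18 in Ujumqin (adjusted p = 1e-05) and by 1.5 ± 0.18 in Hulunbuir (adjusted p = 0.000129). UNC5B, a netrin receptor of sprouting tip cells, fell by 2.54 ± 0.21 (adjusted p = 4e-06) and by 2.84 ± 0.21 (adjusted p = 8e-06). Of the 15 genes, 6 fell and 5 rose in Ujumqin, and 8 fell and 1 rose in Hulunbuir.

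Of 7 tested lymphatic genes, 6 fell with age in each breed and 0 rose, with medians of -2.85 in Ujumqin and -2.40 in Hulunbuir. STAB2, a hyaluronan scavenger receptor of sinusoidal and lymphatic endothelium, fell by 5.39 ± 0.55 in Ujumqin (adjusted p = 1.3e-05) and by 3.77 ± 0.50 in Hulunbuir (adjusted p = 0.000236). CCBE1, a secreted protein needed to activate VEGFC, fell by 2.85 ± 0.31 (adjusted p = 2.1e-05) and by 2.28 ± 0.30 (adjusted p = 0.000232). RELN was higher in Hulunbuir at day 25 by 1.87 ± 0.58 (adjusted p = 0.0465, 0.000109 in 6 libraries), at 1.10 ± 0.0456 FPKM against 0.231 ± 0.0401. The call was lost when any 1 of the 6 day 25 libraries (adjusted p up to 0.147) or Ujumqin day 16 replicate 1 was left out. Several of these genes, PDPN and RELN among them, are also made outside lymphatic vessels.

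Of 28 other endothelial markers, 12 fell and 5 rose with age in Ujumqin, and 14 fell and 1 rose in Hulunbuir. Between breeds 4 were higher and 1 lower in Hulunbuir at day 16, with a median of 0.68 on the log2 scale. At day 25, 0 were higher and 1 lower, with a median of -0.16. STAB1, a scavenger receptor of endothelium and macrophages, fell with age in Hulunbuir by 2.86 ± 0.32 (adjusted p = 9.7e-05). In Ujumqin it had 8.41 ± 4.45 FPKM at day 16 and 2.66 ± 0.172 at day 25, with no overlap between ages. At day 16 STAB1 was higher in Hulunbuir by 1.53 ± 0.30 (adjusted p = 0.00934, 0.135 in 6 libraries). ESM1, a secreted product of VEGF-stimulated endothelium, was lower in Hulunbuir at day 16 by 4.80 ± 0.93 (adjusted p = 0.00872, 0.124 in 6 libraries). Its Ujumqin values of 109.5, 265.5 and 6.72 FPKM had the same order as those of PGF, with replicate 3 near the Hulunbuir values of 4.40, 3.99 and 6.66. The part of trophoblast in the ESM1 values was not tested. In the 6 libraries of day 16 with a replicate block, VEGFC, PGF, NRP2, SOX17, NOTCH4, ESM1 and STAB1 did not pass between breeds, with adjusted p of 0.0706 (NOTCH4) to 0.167 (ESM1), and EPAS1 (0.0295) and PPARG (0.0176) did. At day 25 ECSCR, an endothelial surface protein, was lower in Hulunbuir by 1.04 ± 0.26 (adjusted p = 0.0208, 0.000887 in 6 libraries), with 8.27 ± 0.684 FPKM against 13.1 ± 0.735. The ECSCR call was lost when any 1 Hulunbuir day 25 library, or Ujumqin day 25 replicate 2 or 3, was left out (adjusted p up to 0.0917).

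Mural cells, the pericytes and smooth muscle around vessels, were followed by 12 tested genes. With age 3 fell and 3 rose in Ujumqin and 6 fell and 0 rose in Hulunbuir. Between breeds 3 were higher in Hulunbuir at day 16, and at day 25 there were 3 lower and 1 higher, with a median of -0.72.

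**Figure D4:**
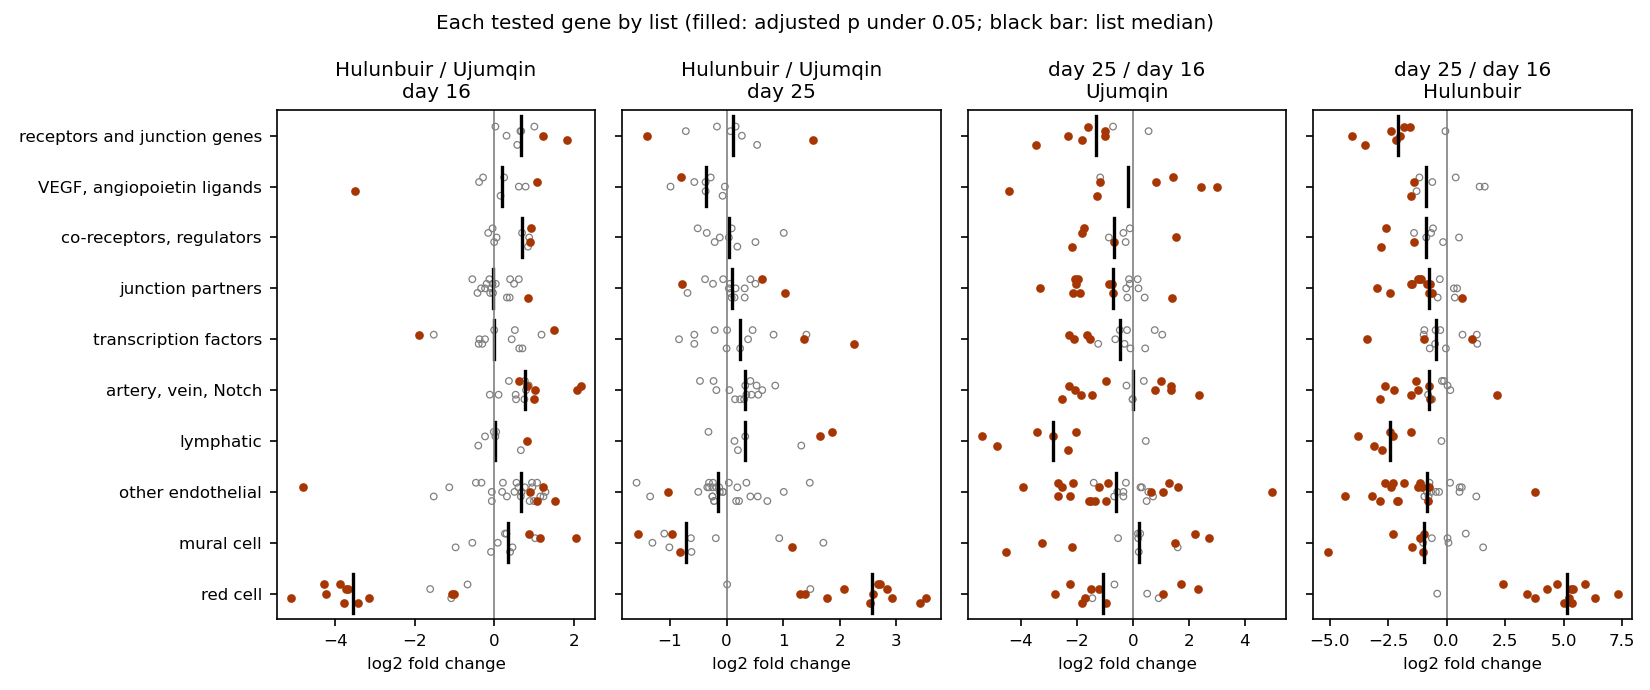
Log2 fold change of each tested gene in 10 gene lists (open: not passed, filled: adjusted p under 0.05) with the list median as a black bar, in the 4 comparisons, each with its own axis range. The receptor and junction genes have medians of 0.67, 0.11, -1.31 and -2.06, the lymphatic genes 0.03, 0.33, -2.85 and -2.40, and the red cell genes -3.56, 2.56, -1.08 and 5.13.

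Genes whose levels went with those of CDH5 were ranked by Pearson's r of log2 TMM-scaled CPM, centred within each age, across the 12 libraries, over 12586 genes with a symbol. The 10 most like it were CEP250 (r = 0.979), SEMA3G (0.972), ZKSCAN4 (0.969), TBX5 (0.966), HOXD3 (0.964), THADA (0.960), PIF1 (0.954), TRIM46 (0.952), TMEM100 (0.952) and ZDHHC14 (0.948). No other member was among the top 50. Of the 104 ranked genes of the endothelial lists, members included, 9 were. Among these were STAB1 (0.945), CD93 (0.945), PCDH12 (0.934) and NOTCH4 (0.932). Of the members ERG was nearest (0.882), then TIE1 (0.769), FLT4 (0.705), PECAM1 (0.704), TEK (0.604) and KDR (0.577). FLT1 had 0.180. All of these points share libraries and the breed difference, so that the values describe these 12 libraries only.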

How the data were processed

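The data are 12 libraries of bulk RNA-seq, 3 for each breed and age. Per the submitters' processing notes, cutadapt 1.9, FastQC and the genome build Oar_v3.1 were used. The aligner, the counting program and its strand setting were not given in the sources used here. The deposited counts are whole numbers per gene. The file headers call them counts and name no scaling between libraries. The deposited FPKM values are per kilobase and scaled by library size, by the authors.

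edgeR 4.0.16 (R 4.3.3) was fitted to the counts: 14595 genes (1 FPKM or more in 3 or more libraries), TMM scaling, 4 group means, quasi-likelihood tests, Benjamini-Hochberg adjustment, threshold 0.05. Levels are deposited FPKM, and log2 changes are from the count fit. Standard errors are log2 changes over the square root of the F statistic. The fit was tested on simulated counts. Symbols for a further 2407 genes came from a RefSeq table of another build. The alternatives, 22 in number, were RLE scaling, DESeq2 1.42.0, no filter, 6 libraries per comparison, replicate blocks, voom and limma 3.58.1 on FPKM (pseudocounts 1 and 0.1) and leaving out each library.

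The members and gene lists were chosen with earlier results of these data known. From the 13 other lists (191 of 220 symbols in the table), up to 2 called genes per direction and 2 uncalled genes could be named per comparison. The labels do not say that replicate numbers pair libraries. In the data, deviations from the group means of same-numbered day 16 libraries correlated at 0.13, 0.28 and 0.36 between breeds, so the blocked p is given for day 16 where it changes a call. Counts of 54 and more stand behind each member's value. 0 entries had an empty gene name, but for some the name was only an Ensembl identifier. Whether SOX18 or SOX7 is among those was not settled. Some results for single markers are not reported here.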

Additional observations from a re-analysis of the deposited data

Results flagged for a closer look

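Results are listed here because the change with age differed between breeds in the test of the interaction (edgeR, adjusted p under 0.05, 12 libraries). A negative value means that the log2 change from day 16 to day 25 was lower in Hulunbuir than in Ujumqin. Among the receptors these were FLT1 (-1.73), TEK (-1.38) and TIE1 (-0.97). Of the other genes named above, NOTCH4 had -2.02, ECSCR -1.55, VEGFC -1.45, STAB1 -1.36 and VEGFB -1.06. Positive values were found for ESM1 (4.49), LYL1 (2.55), LMO2 (1.73), PLEKHA7 (1.14) and the trophoblast marker PPARG (5.18). The ESM1 value rests on 2 Ujumqin libraries at day 16, replicates 1 and 2. Of the 20 alternative settings for the interaction, TEK passed in 17, FLT1 in 19 and TIE1 in 20. NOTCH4, ECSCR, PLEKHA7 and PPARG passed in all 20, and LMO2 and VEGFB in 17. The others were less stable. STAB1 passed in 5 (adjusted p up to 0.107 without a library), LYL1 in 7 (up to 0.0989, without Ujumqin day 25 replicate 2), ESM1 in 10 (up to 0.0629) and VEGFC in 13 (up to 0.0710).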

How the results depend on the processing

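Of 20 calls over the 8 genes and 5 comparisons, 15 were kept in every alternative that gave a value and 0 reversed. Of the 20 that did not pass, 10 never passed. At day 16 the breed calls numbered 2, with 0 in 6 libraries, 4 in DESeq2, 1 in 6 libraries with a replicate block and 2 to 5 without a library, the 5 without Ujumqin replicate 3 (TEK, CDH5 and ERG added). At day 25 they numbered 2, with 5 in 6 libraries, 5 with a replicate block there, 5 in voom, 4 in limma on log2(FPKM + 0.1) and 2 to 4 without a library, the 4 without Hulunbuir day 16 replicate 3 (KDR and TEK added). Age calls numbered 6 to 7 in Ujumqin and 7 in Hulunbuir without a library. Interaction calls numbered 3 to 4 without a library, and 1 of 3 remained on common-sum FPKM. The causes were not tested.

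Only values that did not pass reversed. PECAM1 at day 16 was -0.31 to 0.42 without a library (-0.05 without Hulunbuir replicate 3). At day 25 PECAM1 was 0.30, 0.22 and 0.20 on the 3 FPKM scales and -0.26 to 0.07 without a library, and ERG -0.16 without Hulunbuir replicate 1. ERG with age in Hulunbuir was 0.10 and 0.08 on FPKM with pseudocounts of 0.1 and 1, and -0.29 to 0.14 without a library. The KDR interaction was 0.22, 0.31 and 0.22 on FPKM scales, 0.05 with no filter, 0.01 with a replicate block, 0.02 in voom, and -0.26 to 0.24 without a library. That of PECAM1 was -0.59 to 0.14 without a library.

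Over all tested genes, 2459 were called at day 16, with 3 in 6 libraries, 3696 in DESeq2, 293 in 6 libraries with a block, 487 in voom and 1167 to 3361 without a library. At day 25 there were 2440, with 6716, 6482 and 6665 in 6 libraries, with a block there and in voom, 3667 and 4225 in limma on deposited and common-sum FPKM, and 898 to 2965 without a library. The interaction had 2804, and 1561 to 3337 without a library. At day 25, 47.1% of calls were higher in Hulunbuir, against 85.6% to 91.2% on FPKM scales and 58.9% with no filter. The share was 50.2% at day 16 (64.8% on common-sum FPKM), 48.3% for age in Ujumqin (31.4%), 46.6% for age in Hulunbuir (64.1% on log2(FPKM + 1)) and 46.3% for the interaction (74.1% to 75.3% on FPKM scales). On common-sum FPKM the median of all genes was 0.13 at day 16, 0.37 at day 25, -0.43 and -0.16 with age in Ujumqin and Hulunbuir, and 0.25 for the interaction. Replicate numbers did not pair libraries in the other comparisons (correlations of -0.05 to 0.07), where the replicate block of 12 libraries changed no member's call. FLT4, with 54 to 72 counts in Ujumqin at day 25, is the member most limited by depth.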
